A study of Mus musculus with 6 samples.

Results

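The genes that hold epithelial sheets together and orient them were examined in cultured KPC cells, to ask whether loss of Brca2 shifts the junctions, the polarity machinery or the regulators of epithelial-mesenchymal transition (EMT) of the cancer cells themselves. The list was fixed by gene symbol and held 49 genes, of which 38 have a row in the count table of 10616 genes. KPC cells are a mouse pancreatic ductal adenocarcinoma line from a genetic model in which a Pdx1-driven Cre acts in the pancreas. One group of 3 libraries carried a lentiviral hairpin against Brca2 (shBrca2) and the other group of 3 carried a non-targeting hairpin in the same vector (shControl), and the study's methods describe puromycin selection of both. All 6 libraries came from propidium iodide-negative cells sorted after culture in serum-containing medium, and whether the selected cells were pools or clones is not stated. A legend of the study counts the replicates of these cultured cells as mice, 3 a group, and no source used here says how animals relate to cultures of the line or that the cultures were separate. The p-values therefore measure the spread between these libraries, which may be technical.

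Epithelial cells meet at a row of junctions. Tight junctions, built from claudins, occludin and their ZO scaffolds, seal the space between cells. Adherens junctions below them join cadherins through catenins to actin, desmosomes join desmosomal cadherins to keratin filaments, and gap junctions pass small molecules through connexin channels. The Par, Crumbs and Scribble complexes set the apical and basal sides. In EMT, repressors of the ZEB and Snail families lower cadherin-1 and claudin genes, and GRHL2, OVOL1 and the ESRP splicing factors hold the epithelial state.

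Total counts ran from 1519340 to 2452467 per library. Brca2 itself had 10, 11 and 14 raw counts in shBrca2 and 33, 52 and 33 in shControl, which on the log2 scale is a difference of -1.61 (standard error 0.44, adjusted p = 0.029 by the likelihood ratio test of DESeq2), so the libraries followed their labels. This call was lost when shBrca2 replicate 2 (adjusted p = 0.152), shBrca2 replicate 3 (0.233) or shControl replicate 2 (0.371) was left out. The libraries did not fully divide by hairpin along their main axis of variation. The first principal component held 40.9% of the variance. Its scores for replicates 1 to 3 were -21.6, 1.16 and -22.0 in shBrca2 and -9.1, 13.6 and 38.0 in shControl. The shBrca2 scores were thus mostly the lower ones, with shControl replicate 1 below shBrca2 replicate 2. The keratins of ductal epithelium were abundant in all libraries, with Krt18 between 8219 and 10010 normalized counts (counts divided by the library's size factor). Of the 6 ductal epithelial markers fixed, all were listed and 2 were called, both higher in shBrca2. Across all genes with an adjusted p, 1.27% were called. The other markers, Krt8, Krt18, Krt19 and Muc1, were not called, and their log2 fold changes were -0.17, -0.12, -0.06 and -0.25. The keratin gene Krt7 had 282 to 383 normalized counts in shBrca2 and 121 to 161 in shControl (log2 fold change 1.21, adjusted p = 2.07e-06 by DESeq2). Sox9, a transcription factor of pancreatic ducts, had 54.5 to 92.2 against 25.3 to 42.5 (adjusted p = 0.0391 by DESeq2). Whether these markers have a part in the differences given here was not tested. Of 20 markers fixed for fibroblasts, immune cells and endothelium, 17 have no row in the table, and the highest value among Col1a2, Thy1 and Cd68 in any library was 22.2 normalized counts, for Col1a2 in shControl replicate 1, where Thy1 was also highest (20.2). In bulk RNA, fewer cells of one kind and less RNA per cell cannot be told apart.

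None of the 38 junction and polarity genes was called different between shBrca2 and shControl. To be called, a gene had to have a mean normalized count over 5, a log2 fold change beyond 0.5 in either direction and an adjusted p below 0.1, and 1.27% of the 9997 genes with an adjusted p met it. The edgeR quasi-likelihood test also called 0 of the 33 members it tested. At an unadjusted p under 0.05, DESeq2 gave 5 members (Cdh17 and Gjb1 with more counts in shBrca2, and Cldn6, Cgn and Pard6b with fewer), which is 13.2% of the 38 against 8.33% of all genes. The edgeR test gave 7 of 33 at that level, against 14.5% of all genes. Positive fold changes were found for 21 members and negative ones for 17, and the median log2 fold change was 0.06 against 0.00 for all genes. Normalized counts of the groups did not overlap for 10 members, 4 with the higher values in shBrca2 and 6 with the lower, and this held for 20.3% of all genes. Depth set how much could be seen: mean normalized counts ran from 3.11 for Cldn3 to 2101 for Ctnnb1, with a median of 77.6.

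**Figure D1:**
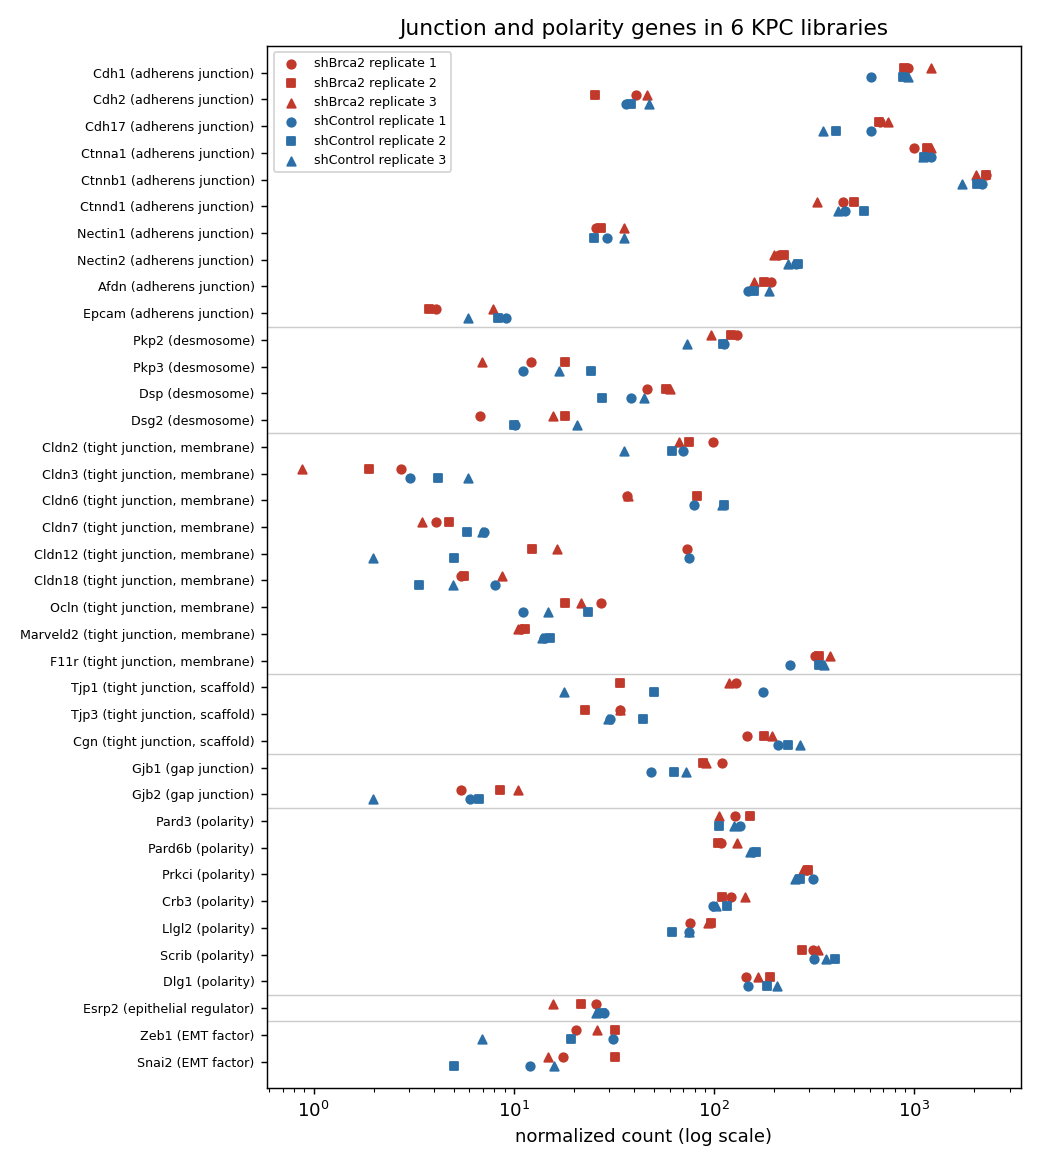
Normalized count of each of the 38 listed junction and polarity genes in every library, on a log scale, with shBrca2 in red, shControl in blue and the marker shape giving the replicate. Most genes sit in the same range in both groups, while Cldn12 and Tjp1 spread widely within each group.

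For the core of the adherens junction the intervals were narrow. Ctnnb1, which encodes beta-catenin, had 2279, 2293 and 2047 normalized counts in shBrca2 and 2174, 2071 and 1740 in shControl. These ranges overlap, and the 95% interval of the log2 fold change, from -0.13 to 0.42, lies inside the 0.5 that a call required. For Ctnna1, alpha-catenin, whose values ran from 1001 to 1211 over the 6 libraries, the interval was -0.30 to 0.25. Afdn, the nectin-binding scaffold afadin, had an interval from -0.30 to 0.49. Ctnnd1, p120-catenin, which stabilises cadherins at the membrane, was at -0.18 on the same scale, with an interval from -0.55 to 0.20.

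Cdh1 encodes E-cadherin, the defining adherens junction cadherin of epithelia. It had 927.6, 889.5 and 1218 normalized counts in shBrca2 and 610.3, 883.9 and 937.3 in shControl. The highest library was a shBrca2 one and the lowest a shControl one, but the middle values interleave. Its log2 fold change was 0.32 (interval -0.05 to 0.69, adjusted p = 0.69 by DESeq2). It was 0.152 without shControl replicate 1, 0.165 without shBrca2 replicate 3 and 0.469 with 1 surrogate variable (adjusted p = 0.889, 0.993 and 0.31). The mesenchymal cadherin Cdh2, N-cadherin, was listed as well, with 40.9, 25.5 and 46.1 in shBrca2 and 36.4, 38.6 and 47.5 in shControl. Its log2 fold change of -0.12 had an interval from -0.82 to 0.57, and it turned to 0.098 without shBrca2 replicate 2. So KPC cells of both groups carried reads of both cadherins, and no switch between them was detectable at this depth.

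Cdh17 encodes LI-cadherin, a cadherin of intestinal epithelium that lacks the catenin-binding tail of classical cadherins. The gene lies on chromosome 4 (11758157 to 11817905 in GRCm38) and overlaps no other annotated gene. It had the smallest p of the whole list. Its counts were 672.9, 669.3 and 740.5 in shBrca2 and 609.3, 409.2 and 352.0 in shControl, so every shBrca2 library exceeded every shControl library. The mean was 694 ± 40.1 against 457 ± 135 (SD, n = 3), a log2 fold change of 0.605 (interval 0.22 to 0.99), and the adjusted p of 0.129 by DESeq2 missed the threshold. The call turned on single choices. Without shControl replicate 1, the control nearest to the shBrca2 values, the log2 fold change was 0.865 (adjusted p = 0.000337). The adjusted p also passed with TMM factors (0.098) and when only genes reaching 10 counts in 3 or more libraries were fitted (0.0995), and it was 0.184 both by edgeR and with 1 surrogate variable.

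Nectins are immunoglobulin-type adhesion molecules that start the contact, and nectin-2 is also a ligand of receptors on lymphocytes. Nectin2 had 211, 223 and 199 normalized counts in shBrca2 and 257, 262 and 233 in shControl. The groups did not overlap, but the difference was small, with a log2 fold change of -0.25 (interval -0.60 to 0.10, adjusted p = 0.794 by DESeq2). Nectin1, with values from 25.2 to 35.7 in the 6 libraries, had an interval from -0.75 to 0.75. Epcam, which encodes the epithelial cell adhesion molecule used widely to sort carcinoma cells, was scarce here. Its normalized counts were 4.09, 3.78 and 7.83 in shBrca2 and 9.09, 8.39 and 5.93 in shControl, and the interval of its log2 fold change ran from -2.08 to 0.97.

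**Figure D2:**
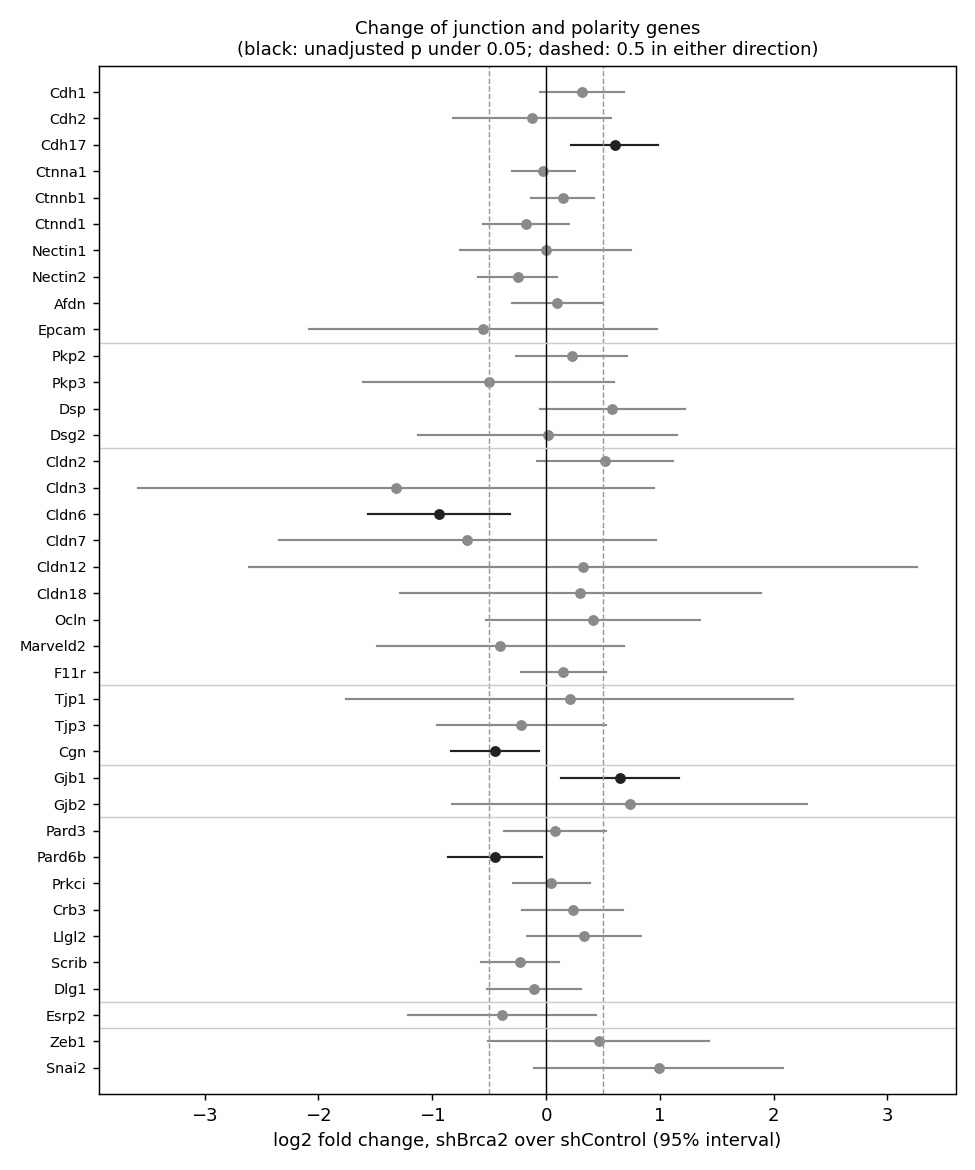
Log2 fold change of shBrca2 over shControl for each of the 38 listed members, with points for the estimate and lines for the 95% interval, ordered by role from adherens junction at the top to EMT factors at the bottom. The 5 members with an unadjusted p under 0.05 are black, and the intervals of Cldn12, Cldn3 and Tjp1 are among the widest.

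The desmosomal genes were thinly covered, and Jup and Dsc2 have no row. Dsp encodes desmoplakin, which ties the desmosome to keratin. It had 46.3, 57.7 and 60.0 normalized counts in shBrca2 and 38.4, 27.7 and 44.5 in shControl, without overlap, and a log2 fold change of 0.58 (interval -0.06 to 1.22, adjusted p = 0.653 by DESeq2). Pkp2, a plakophilin of the desmosomal plaque, had 131, 122 and 96.6 against 112, 112 and 73.2, with a log2 fold change of 0.23. Pkp3, another plakophilin, and Dsg2, a desmosomal cadherin, had log2 fold changes of -0.50 and 0.02, each with a standard error over 0.5 (0.56 and 0.58).

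Among the tight junction membrane proteins, Cldn6 gave the smallest p. Claudin-6 is a claudin of embryonic and early epithelia that is low in most adult tissues. The counts were 36.8, 82.2 and 37.4 in shBrca2 and 79.8, 112.4 and 109.8 in shControl. Among the shBrca2 libraries, replicates 1 and 3 lay below all controls, while replicate 2 stood with the lowest control. The mean was 52.1 ± 26.1 against 100.6 ± 18.1 (SD, n = 3), a log2 fold change of -0.94 (interval -1.57 to -0.31, adjusted p = 0.171 by DESeq2). Without shBrca2 replicate 2 the log2 fold change was -1.44 (adjusted p = 0.00499). Both low libraries also have negative scores on the first principal component, and with 1 surrogate variable in the fit the log2 fold change was -0.73 (adjusted p = 0.315).

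Cgn encodes cingulin, which links ZO proteins to the actin and microtubule skeleton. It had 146, 178 and 194 normalized counts in shBrca2 and 208, 233 and 268 in shControl. The groups did not overlap, and the log2 fold change was -0.45 (interval -0.84 to -0.06, adjusted p = 0.448 by DESeq2). Pard6b encodes the Par6 beta adaptor, which joins Par3, atypical protein kinase C and Cdc42. It had 109.0, 104.9 and 129.7 in shBrca2 and 157.6, 161.8 and 151.3 in shControl, again without overlap, and the log2 fold change was -0.45 (interval -0.86 to -0.04, adjusted p = 0.501). Cdc42, read in a second list described below, had a log2 fold change of 0.19 (interval -0.12 to 0.5). For the partners of Pard6b among the members the estimates were near 0. Prkci, the kinase, had a log2 fold change of 0.05 (interval -0.29 to 0.38) and Pard3, the Par3 scaffold, one of 0.08 (-0.37 to 0.52).

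The 250 bases before a RefSeq transcript start of Cldn6, Cgn and Pard6b are shown because these are the members with fewer counts in shBrca2 at an unadjusted p under 0.05, and because ZEB and Snail repressors and GRHL activators read short motifs in such regions. Capitals mark CAGGTG, an E-box of ZEB and Snail proteins, or AACNGGTT, a GRHL motif, on either strand. The windows lie at chr17:23679115-23679364 (plus strand), chr3:94786483-94786732 (minus strand) and chr2:168080754-168081003 (plus strand) of GRCm38.p6, and each reads 5′ to 3′ on the gene's strand. The start used is the one in the RefSeq promoter table. For Cgn, whose gene spans 94760069 to 94787725 on the minus strand, it lies inside the gene, downstream of the outermost start. For Cldn6, on the plus strand, it lies a few bases inside the gene, whose annotated start is at 23679348.
Cldn6: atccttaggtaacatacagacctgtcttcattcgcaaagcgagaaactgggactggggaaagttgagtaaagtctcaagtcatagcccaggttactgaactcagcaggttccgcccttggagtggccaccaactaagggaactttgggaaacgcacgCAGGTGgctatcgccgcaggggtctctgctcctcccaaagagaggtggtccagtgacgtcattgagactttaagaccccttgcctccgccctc
Cgn: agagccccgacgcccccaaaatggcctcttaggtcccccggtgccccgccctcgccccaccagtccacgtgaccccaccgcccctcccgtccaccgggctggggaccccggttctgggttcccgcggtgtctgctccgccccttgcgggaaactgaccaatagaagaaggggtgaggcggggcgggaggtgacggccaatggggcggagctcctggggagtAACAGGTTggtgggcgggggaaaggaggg
Pard6b: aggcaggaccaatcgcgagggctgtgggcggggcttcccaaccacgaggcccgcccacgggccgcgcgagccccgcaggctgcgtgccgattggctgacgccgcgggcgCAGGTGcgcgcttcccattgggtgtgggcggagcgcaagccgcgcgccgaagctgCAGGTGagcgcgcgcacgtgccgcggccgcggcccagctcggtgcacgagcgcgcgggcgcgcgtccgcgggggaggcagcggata
Cldn6 has 1 CAGGTG, which begins 93 bases before the start, and Pard6b has a pair, at 141 and 86 bases. Cgn has no CAGGTG on either strand and holds a GRHL motif 29 bases before the start. Other forms of the E-box, such as the CACGTG in the Cgn and Pard6b windows, were not searched or marked. Of the 38 members, 25 matched an entry in the RefSeq promoter table. In the first window listed, 8 of these hold CAGGTG on either strand. They are Nectin2, Epcam, Cldn6, F11r, Tjp3, Gjb2, Pard6b and Crb3. The share was 14.6% of the 8544 genes of the count table that have an entry. Of the 8, F11r, Gjb2 and Crb3 had positive log2 fold changes, and Nectin2, Epcam, Cldn6, Tjp3 and Pard6b negative ones. The GRHL motif was found in 1 of the 25 members and in 1.54% of the genes. A match is a description of the letters in this window and does not show that a factor binds there.

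**Figure D3:**
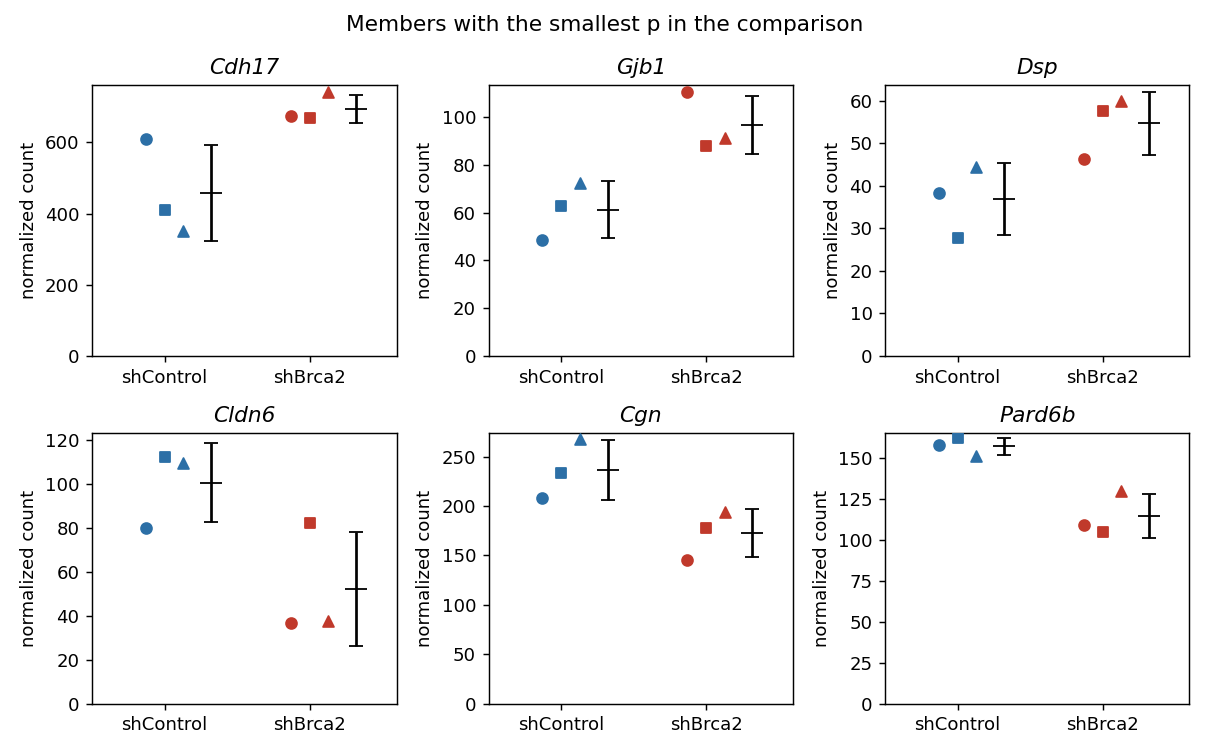
Normalized counts per library for the 6 members with the smallest p, each axis starting at 0, with shControl in blue, shBrca2 in red, marker shapes for replicates, and bars for the mean and SD of 3 libraries. Cdh17, Gjb1 and Dsp are higher in every shBrca2 library, Cgn and Pard6b are lower in every one, and for Cldn6 shBrca2 replicate 2 lies among the controls.

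The other claudins were shallow or variable. Cldn2, a pore-forming claudin, had 99.4, 74.7 and 67.0 normalized counts in shBrca2 and 69.7, 62.1 and 35.6 in shControl, and the log2 fold change was 0.52 (interval -0.08 to 1.11). Cldn3, Cldn7 and Cldn18 were near the lower limit of the table. Cldn3 had 5 raw counts over the shBrca2 libraries and 14 over the shControl libraries, a ratio of 0.388 with a counting interval from 0.109 to 1.14, which covers counting error only. For Cldn7 no shBrca2 value exceeded 4.73 and no shControl value was below 5.87, yet the interval of the log2 fold change ran from -2.35 to 0.96. Cldn18, a claudin of stomach and lung, had a log2 fold change of 0.30 with a standard error of 0.81. Cldn1, Cldn4, Cldn15 and Marveld3 have no row in the table and were not analysed here.

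Occludin and its relatives followed neither direction. Ocln had 27.2, 18.0 and 21.8 normalized counts in shBrca2 and 11.1, 23.5 and 14.8 in shControl, and the log2 fold change was 0.41 (interval -0.53 to 1.35). Marveld2, tricellulin, which seals the corners where cells meet, had 10.9, 11.3 and 10.4 against 14.1, 15.1 and 13.8. These groups do not overlap, but at such counts the interval ran from -1.49 to 0.69. F11r, which encodes the junctional adhesion molecule JAM-A, was better covered, with 319, 334 and 381 against 240.5, 334 and 356 and an interval from -0.22 to 0.52. Tjp3, the scaffold ZO-3, had a log2 fold change of -0.22, and as the gene overlaps Apba3, which is also in the table, its count is uncertain.

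A pair of tight junction genes varied far more between libraries than between hairpins. Tjp1 encodes ZO-1, the scaffold under claudins and occludin. It had 129, 34.0 and 118 normalized counts in shBrca2 and 176, 50.3 and 17.8 in shControl, a range of 9.88-fold. Cldn12, a claudin that lacks the usual PDZ-binding tail, had 73.6, 12.3 and 16.5 in shBrca2 and 74.8, 5.03 and 1.98 in shControl, a range of 37.8-fold. Both were high in replicate 1 of each group and lowest in shControl replicate 3, the library at the far end of the first principal component, and Tjp1 was also high in shBrca2 replicate 3. Among the 7796 genes with a mean normalized count over 20, the pooled within-group SD on the log2 scale was 1.98 for Cldn12 and 1.37 for Tjp1, at percentiles 99.97 and 99.67, whereas the median was 0.239 for the 28 members so covered and 0.22 for all genes. Their log2 fold changes were 0.21 for Tjp1 (interval -1.75 to 2.17) and 0.32 for Cldn12 (-2.61 to 3.26). With 1 surrogate variable in the fit, these became -0.36 with a standard error of 0.28 for Tjp1, and -0.10 with one of 0.50 for Cldn12. Leaving out shControl replicate 1 moved Cldn12 to 3.23 (adjusted p = 0.0225 by DESeq2), so any difference read for these genes rests on single libraries. Both genes were singled out for this spread after their values were seen.

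The 250 bases before a RefSeq transcript start of Tjp1 (chr7:65371245-65371494, minus strand) and Cldn12 (chr5:5514977-5515226, minus strand, the first of 3 windows listed for this gene), again in GRCm38.p6, are shown because these genes shared their high and low libraries. The Tjp1 gene spans 65296165 to 65527850, so its window precedes an internal transcript start and not the outermost one. Neither window holds either motif, so no letters are in capitals.
Tjp1: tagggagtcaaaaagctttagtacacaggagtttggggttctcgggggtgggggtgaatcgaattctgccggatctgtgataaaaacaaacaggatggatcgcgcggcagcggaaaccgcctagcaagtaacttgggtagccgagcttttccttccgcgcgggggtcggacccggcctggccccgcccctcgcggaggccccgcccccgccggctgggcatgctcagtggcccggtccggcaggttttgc
Cldn12: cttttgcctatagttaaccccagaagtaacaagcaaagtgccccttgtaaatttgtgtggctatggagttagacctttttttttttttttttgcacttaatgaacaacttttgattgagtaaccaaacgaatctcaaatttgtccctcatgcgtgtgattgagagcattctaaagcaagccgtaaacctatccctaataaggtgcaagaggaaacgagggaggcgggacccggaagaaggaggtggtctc
The Tjp1 window had 63.2% G and C bases and the Cldn12 window 42.0%.

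**Figure D4:**
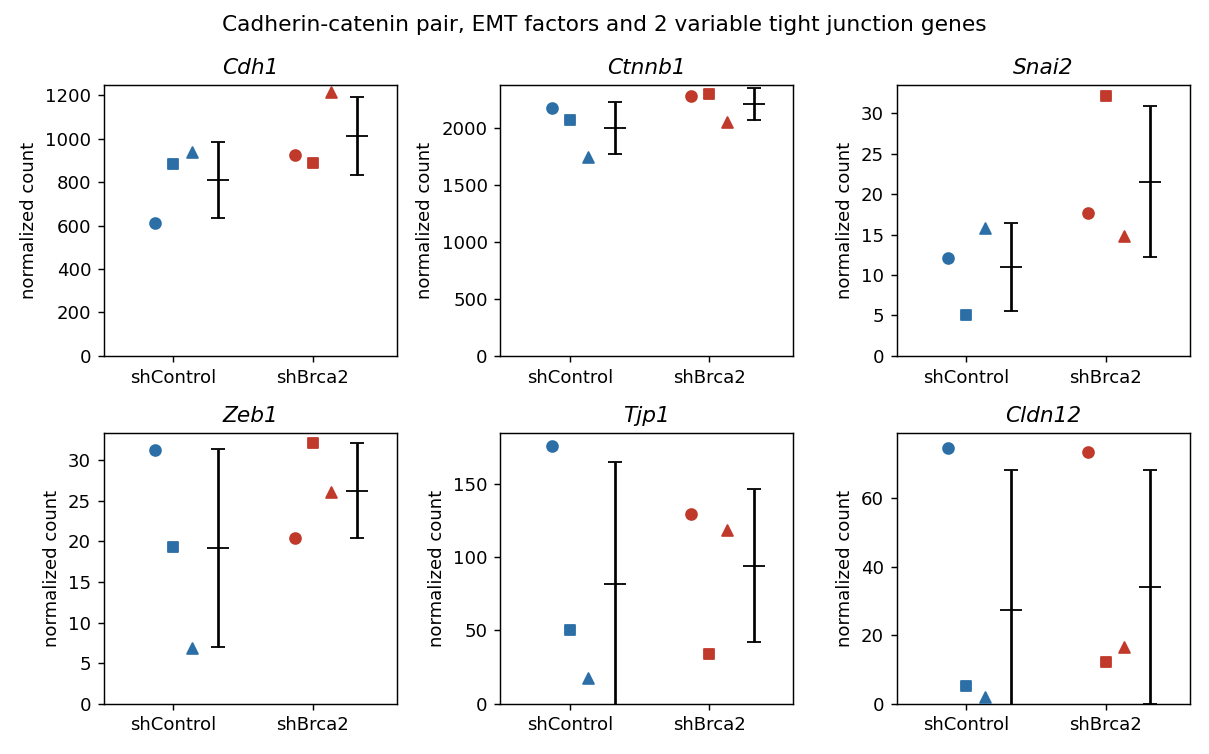
Normalized counts per library of Cdh1, Ctnnb1, Snai2, Zeb1, Tjp1 and Cldn12, each axis starting at 0, with shControl in blue, shBrca2 in red, marker shapes for replicates, and bars for the mean and SD of 3 libraries, drawn only above 0. Ctnnb1 stays between 1740 and 2293, while Tjp1 and Cldn12 are high in replicate 1 of both groups and lowest in shControl replicate 3.

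Both gap junction members had higher estimates in shBrca2. Gjb1 encodes connexin 32, the main connexin of liver and of pancreatic acini. It lies on the X chromosome (101376376 to 101385629 in GRCm38) and had 110.3, 87.9 and 91.4 normalized counts in shBrca2 and 48.5, 62.9 and 72.2 in shControl. The groups did not overlap, with a mean of 96.5 ± 12.1 against 61.2 ± 11.9 (SD, n = 3) and a log2 fold change of 0.65 (interval 0.13 to 1.17, adjusted p = 0.351 by DESeq2). Gjb2, connexin 26, had 5.45, 8.51 and 10.4 against 6.06, 6.71 and 1.98, with an interval from -0.82 to 2.30.

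The remaining polarity genes were close between the groups. Scrib, which encodes the basolateral scaffold Scribble, had 313, 276 and 332 normalized counts in shBrca2 and 315, 402 and 361 in shControl, and the log2 fold change was -0.23 (interval -0.57 to 0.11). Its partners Dlg1 and Llgl2 had log2 fold changes of -0.10 and 0.34, and Llgl2 values did not overlap, with a lowest shBrca2 value of 76.3 and a highest shControl value of 75.1. Crb3, the Crumbs protein of most epithelia, had one of 0.23 (interval -0.21 to 0.68).

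The regulators of epithelial state were thinly covered. Zeb2, Snai1, Grhl2, Esrp1 and Ovol1 have no row in the table and were not analysed here. Zeb1 had 20.4, 32.1 and 26.1 normalized counts in shBrca2 and 31.3, 19.3 and 6.92 in shControl. Its log2 fold change of 0.46 (interval -0.51 to 1.43) ranged from 0.07 to 0.99 over the 5 fits with 1 library left out that gave an adjusted p. Snai2, which encodes Slug, had 17.7, 32.1 and 14.8 against 12.1, 5.03 and 15.8. The value in shBrca2 replicate 2 was the highest and that in shControl replicate 2 the lowest, and the others interleave. Its log2 fold change of 0.99 (interval -0.10 to 2.09, adjusted p = 0.658 by DESeq2) was the largest positive one in the list. Esrp2, an epithelial splicing factor whose gene overlaps Nfatc3 and 1810019D21Rik, had 25.9, 21.7 and 15.7 against 28.3, 27.7 and 25.7, with a log2 fold change of -0.39 (interval -1.21 to 0.44) and an uncertain count.

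A second list of 120 gene symbols of the same structures, drawn up by role, was read from the same fit. It held Mpp5 also under its other symbol Pals1, which has no row. Of the 120 symbols, 70 have a row, and 5 were called, 1 higher and 4 lower in shBrca2. These were set beside 0.77% and 0.5% of all genes in those directions. The list was drawn up with earlier results in view, and Ajuba had been seen among the study's changed genes, so these counts do not stand as independent evidence. At an unadjusted p under 0.05 there were 11 of the 70, or 15.7%, 2 of them higher and 9 lower, against 8.33% of all genes, 472 higher and 412 lower.

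Ajuba encodes a LIM protein that binds alpha-catenin at adherens junctions and also acts in Hippo signalling. It had 211, 242 and 268 normalized counts in shBrca2 and 523, 378 and 378 in shControl, and fell by 0.82 on the log2 scale (standard error 0.19, adjusted p = 0.00471 by DESeq2). The adjusted p was 0.101 without shBrca2 replicate 1. The other adherens junction genes of this list, 13 in number, were not called. Lin7c, an adaptor of the Crumbs complex at tight junctions, was the gene called higher, with 170.3, 112.5 and 160.1 in shBrca2 and 97.0, 67.9 and 39.6 in shControl. Its log2 fold change of 1.11 (standard error 0.29, adjusted p = 0.0224) was no longer called in 4 of the 6 leave-one-out fits, without shBrca2 replicate 1 (0.311), shBrca2 replicate 3 (0.424), shControl replicate 2 (0.347) or shControl replicate 3 (0.221), and edgeR gave 0.12. Its Crumbs-complex partner Mpp5 (Pals1) had a log2 fold change of 0.21 (adjusted p = 0.925 by DESeq2). Patj, also of that complex, went the other way at -0.64 (adjusted p = 0.91 by DESeq2), with a mean of only 8.92 normalized counts.

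Fn1 (fibronectin) and Axl, a receptor tyrosine kinase, both widely used as mesenchymal markers, were also called. Axl had 385, 403 and 466 normalized counts in shBrca2 and 759, 631 and 552 in shControl, and fell by 0.63 on the log2 scale (standard error 0.17, adjusted p = 0.029 by DESeq2). It lost the call by edgeR (0.108) and without shBrca2 replicate 1 (0.248), shBrca2 replicate 2 (0.152), shControl replicate 1 (0.18) or shControl replicate 2 (0.236). Fn1 had 158.0, 177.7 and 177.5 in shBrca2 and 355.7, 291.8 and 303.5 in shControl, without overlap. It fell by 0.89 on the log2 scale (standard error 0.18, adjusted p = 0.000524) and was called in all 6 of the leave-one-out fits. Other mesenchymal genes were not called. Vim, vimentin, had a log2 fold change of -0.13 (interval -0.41 to 0.15), Twist1 one of -0.64 (adjusted p = 0.863) and Twist2 one of 0.55 (adjusted p = 0.635).

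Several tight junction genes of this list had small unadjusted p-values without a call. Lsr encodes the angulin that recruits tricellulin to tricellular corners. It had 484, 733.5 and 760.5 normalized counts in shBrca2 and 776, 986 and 1023 in shControl, and the log2 fold change was -0.49 (adjusted p = 0.299 by DESeq2). Tjap1, a tight junction associated protein, had 225, 217 and 231 against 322, 283 and 332, a log2 fold change of -0.48 (adjusted p = 0.238). Ybx3, the ZO-1 associated nucleic acid binding protein ZONAB, had a log2 fold change of -0.42, which with 1 surrogate variable was -0.52 at an adjusted p of 0.0238. The claudin-domain gene Cldnd1 had -0.55 and the polarity kinase Stk11, whose gene overlaps Cbarp in the table, had -0.49, with adjusted p-values of 0.325 and 0.448. Cxadr, the coxsackievirus and adenovirus receptor of tight junctions, was the exception in sign, with 148.5, 123.8 and 148.8 in shBrca2 and 105.1, 99.8 and 77.1 in shControl and a log2 fold change of 0.58 (adjusted p = 0.33). For Lsr, Tjap1, Ybx3, Cldnd1, Stk11 and Cxadr the groups did not overlap. These genes were named for a small unadjusted p in the same libraries, so the lack of overlap adds no separate support. Groups did not overlap for 21 of the 70 genes of this list and for 20.3% of all genes.

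**Figure D5:**
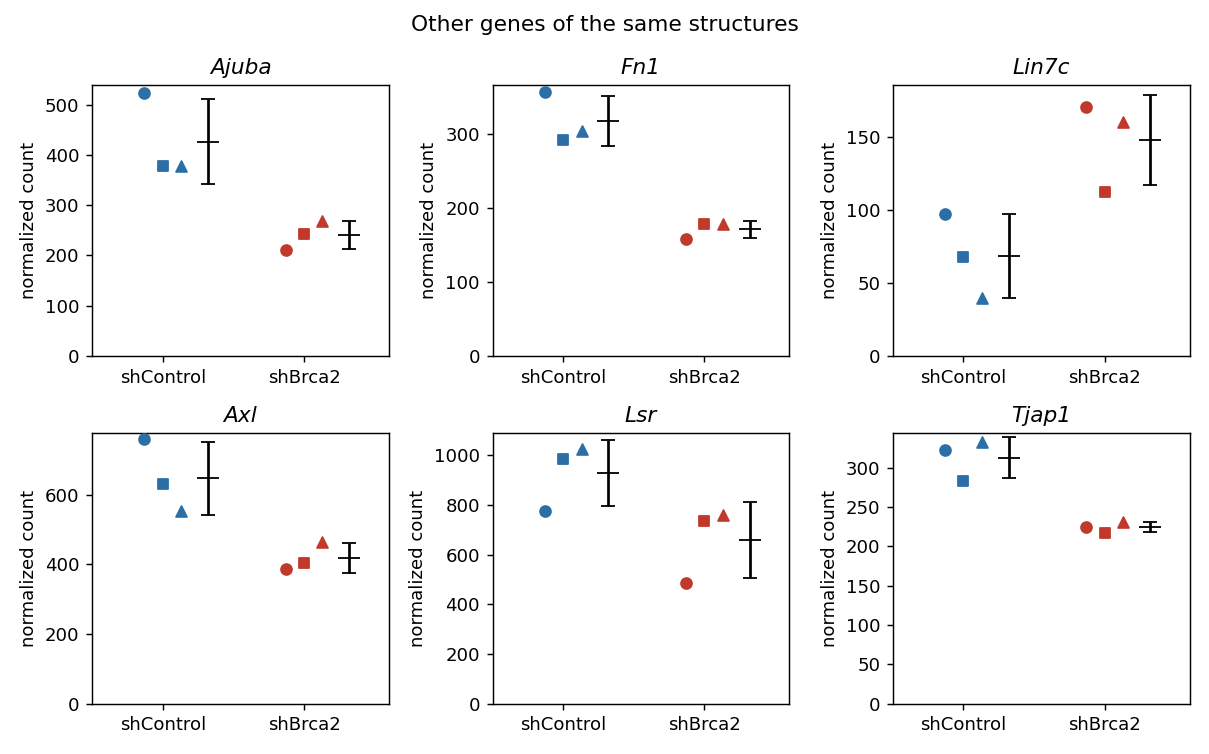
Normalized counts per library of 6 genes of the second list, each axis starting at 0, with shControl in blue, shBrca2 in red, marker shapes for replicates, and bars for the mean and SD of 3 libraries. Ajuba, Fn1 and Axl are lower in every shBrca2 library and Lin7c is higher, and these 4 were called, while Lsr and Tjap1 were not.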

How the data were processed

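Poly(A) RNA of sorted live KPC cells was made into 3′ end libraries by a variation of MARS-seq. The authors deposited raw counts per gene symbol, not normalized, 1 column per library. The submitters' processing notes name bcl2fastq, cutadapt, STAR 2.4.2a, HTSeq, DESeq2 and build mm10. The annotation, the strand setting and whether molecular identifiers were counted are not given in the sources used here, so genes that overlap have uncertain counts, and counting intervals cover counting error only. Every listed gene has at least 6 counts in some library. Genes without a row were not analysed here.

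Groups followed the source name in the labels. Within a group, pairs of libraries differed beyond counting noise (chi-square per degree of freedom of at least 4.33). Counts were fitted over all genes with DESeq2 1.42.0 in R 4.3.3 (median-of-ratios size factors, likelihood ratio test, Benjamini-Hochberg adjustment), with the thresholds of the study's methods. DESeq2 gave no adjusted p to 619 genes. Intervals are the log2 fold change plus and minus the normal 95% multiple of its standard error. The alternatives were edgeR 4.0.16, the Wald test, TMM factors, other filters and thresholds, 1 surrogate variable (sva 3.50.0) and each library left out. The fits were tested on simulated counts.

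The members, the lists and the alternatives were chosen with earlier results of these data known. Genes named in full were the members called, those with an unadjusted p under 0.05, those with the highest mean or largest change in each role, and a set of well-known members. Of the second list, those called or with an unadjusted p under 0.05 were named by rule, except for a result that is not reported here, and Mpp5, Vim, Twist1 and Twist2 were named after their values were seen. Positions and promoters came from RefSeq on GRCm38.p6, the same build as mm10.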

Additional observations from a re-analysis of the deposited data

How the results depend on the processing

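No paired analysis was possible because replicates carry no numbers in the labels, and those used here only name the libraries. Of the junction and polarity genes, 1 was called with TMM factors and 1 with genes limited to at least 10 counts in at least 3 libraries (Cdh17 in both), and from 0 to 2 were called over the 6 leave-one-out fits: Cldn6 without shBrca2 replicate 2, and Cdh17 and Cldn12 without shControl replicate 1. The cause was not tested. No member was called by edgeR, by the Wald test, with no independent filter, with 1 surrogate variable or under the other thresholds. Across all genes, 127 were called, and from 47 (without shBrca2 replicate 3) to 140 when a library was left out, with 55 without shControl replicate 2 and 81 without shBrca2 replicate 1. Of the second list, 5 genes were called, 3 by edgeR (Ajuba and Fn1 among them), and from 2 to 4 when a library was left out, with 2 without shBrca2 replicate 1 and 3 without shControl replicate 2. Brca2 was between -1.70 and -1.46 on the log2 scale over those fits, at adjusted p-values from 0.0684 to 0.371 by DESeq2.

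Reversed signs belonged to Cdh2, Tjp1 and Cldn12. With 1 surrogate variable the log2 fold change was -0.36 for Tjp1 and -0.10 for Cldn12. When a library was left out it ranged from -0.32 to 0.098 for Cdh2, from -0.27 to 1.46 for Tjp1 and from -0.92 to 3.23 for Cldn12. Over 31 named genes, direction and call held in 311 of 337 comparisons, while 11 lost a call, 6 gained one and 9 reversed. Most of these genes were not called in the main fit, so for them a held call means that they stayed uncalled. The Wald test and the fit with no independent filter gave the same log2 fold changes as the main fit. All 11 lost calls belonged to Ajuba, Axl and Lin7c, which the main fit had called. A further 35 gave no adjusted p and were not compared. TMM factors and edgeR moved the median of all genes by at most 0.00533. Low counts limit Epcam, Cldn3, Cldn7, Cldn18, Gjb2, Marveld2, Dsg2, Pkp3, Snai2, Ocln and Zeb1, for which only large differences could have been seen. Zeb1 also varied widely within groups, at percentile 97.56 of the pooled SD.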
